A study of Bos taurus with 138 samples.

Results

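The change in polysome-bound mRNA from the bovine morula to the blastocyst was measured in 12 of the 138 libraries of the study. These are fractions 8, 9 and 10 (F8, F9 and F10), the polysome end of a sucrose gradient of 10 fractions, from 2 gradients (A and B) of morulae and 2 gradients of blastocysts. The counts of the 3 fractions were summed per gene within each gradient, which gave 4 pools, and the 2 blastocyst pools were compared with the 2 morula pools after scaling to library size. The study took Bos taurus oocytes at the GV (germinal vesicle) and MII (metaphase II) stages and embryos at the 2-cell, 8-cell, morula and blastocyst stages, with 2 gradients and 3 whole-embryo transcriptomes (A, B and C) at each of the 6 stages. Both groups compared here were produced in vitro: oocytes from slaughterhouse ovaries were matured in culture and fertilised with thawed semen of a Holstein bull, embryos of good morphology were kept, and cycloheximide, which stalls elongating ribosomes, was added before collection. No treatment or genotype set the groups apart, only the stage. Each library came from a pool of embryos, so no value belongs to a single embryo, and the 2 gradients of a stage are the replicates. The study's methods state that the experiment was run on 2 occasions and treat the gradients as biological replicates, while the labels do not say whether A and B came from separate embryo collections. The p-values rest on the spread between replicate libraries, part of which may be technical. In the main model that spread was estimated over the polysome pools and transcriptomes of all 6 stages.

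In a sucrose gradient an mRNA sediments further the more ribosomes it carries, so that heavy fractions hold mRNAs read by several ribosomes at once (polysomes), middle fractions hold single ribosomes (monosomes) and the top holds free RNA. The polysome level of a gene therefore depends both on how much of its mRNA the embryo holds and on the share of that mRNA loaded with many ribosomes. Between the morula and the blastocyst, the outer cells of the embryo become the trophectoderm, an epithelium that pumps fluid into the blastocoel, while the inner cells go on to form the epiblast and the hypoblast. Because whole embryos were lysed, fewer cells of a type and less RNA per cell cannot be told apart.

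The pools held between 28023792 and 39380640 counts, with a count for between 11204 and 12546 genes. Levels are given below as counts per 1000000 counts of a library scaled by its TMM factor (CPM), and a level of 3 counts lay between 0.0863 and 0.145 CPM in a pool. The 2 blastocyst pools were more alike than the 2 morula pools: across genes, Pearson's r of log2(CPM + 1) was 0.947 between the blastocyst pools and 0.869 between the morula pools, and the 4 pairings of a morula with a blastocyst pool gave between 0.88 and 0.90. F9 of morula gradient A stood apart, with a count for 5714 genes against 9469 to 11609 in the other 11 fraction libraries. Without that library, 809 genes rose and 981 fell in the comparison below.

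Of 14612 genes tested, 846 (5.79%) rose and 1188 (8.13%) fell in polysomes, together 13.9%, at an adjusted p below 0.05 and a fold change above 2 (edgeR's quasi-likelihood test with Benjamini-Hochberg adjustment, in 1 model of the 12 polysome pools of all stages and the 18 transcriptomes). These counts rest on a spread shared between both kinds of library, and the pools varied far more than the transcriptomes. The common dispersion between replicates was 0.785 for the 12 pools, a biological coefficient of variation of 0.886, and 0.0698 for the 18 transcriptomes. In the shared model it was 0.313, below that of the pools, so its p-values for polysome changes may be too small. The morula pools (1.24) had a larger dispersion than the blastocyst pools (0.621). When only the 12 polysome pools were fitted, 8 genes rose and 21 fell, and 1775 of 14339 genes had an unadjusted p below 0.05. When only the 4 pools of the 2 stages were fitted, no gene was called by the same edgeR test, and 997 of 11555 genes had an unadjusted p below 0.05. Of the 846 rises, 624 had an unadjusted p below 0.05 in the fit of the 12 pools, and of the 1188 falls, 909 had. Both fits use the same pools, so these numbers are largely built in and add no support. Leaving out 1 pool also moved the counts: 255 of the rises and 187 of the falls were called without each of the 4 pools in turn. Calls from the model of 30 libraries are given below with these limits, which single sentences do not always repeat. Counts of list members with 1 pool left out show only how far a count depended on that pool. The share of all genes called moved in those fits too, so 5.79% and 8.13% are not the background for such counts. Calls named below that were lost in at least 1 fit without 1 pool include KRT18, PLAC8, PAG2, HNF4A, CRB3, EZR, FXYD4 and HSPA5. POLR1C, BOP1, CDC20, EIF5A, MOS, BMP15, GPX8, STK4, CYP51A1, INSIG1 and INTS11 were lost likewise, and others are marked where they are named.

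**Figure D1:**
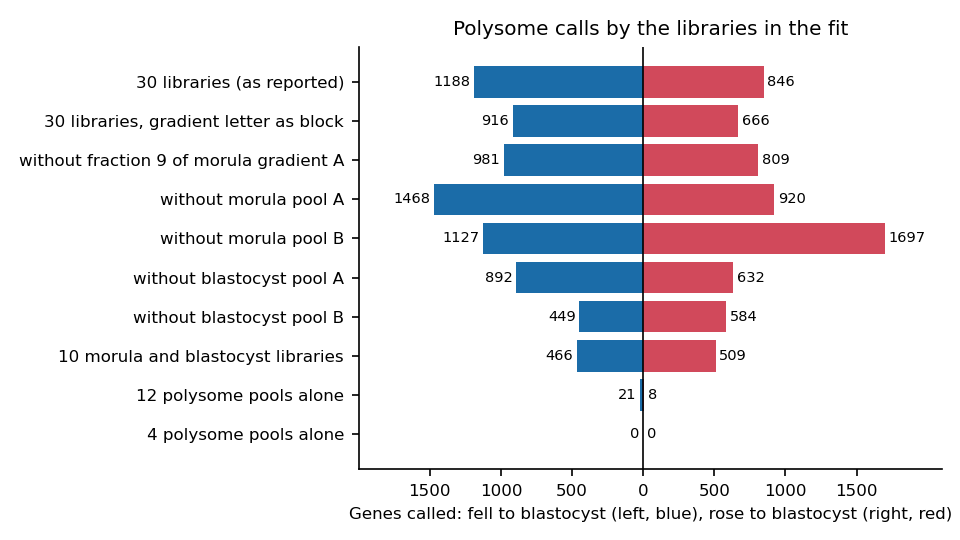
Number of genes called as lower (blue, left) or higher (red, right) in blastocyst than in morula polysomes, by the libraries in the fit. The model of 30 libraries gave 846 rises and 1188 falls, the 12 polysome pools alone gave 8 and 21, and the 4 pools alone gave 0.

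The 29 genes called from the 12 polysome pools alone were all called in the model of 30 libraries and without each pool in turn. The 8 that rose included KRT19, a keratin of simple epithelia, and RAB25, a small GTPase of vesicle recycling in epithelial cells. KRT19 stood at 86.5 and 217 CPM in morula pools A and B and at 1274 and 1080 CPM in blastocyst pools A and B. Its log2 fold change was 2.96 (SE 0.39, adjusted p 5.25e-05 in the model of 30 libraries and 0.023 in the 12 pools). Both blastocyst pools lay above both morula pools. RAB25 was at 19.2 and 47.6 CPM in the morula pools and at 311 and 379 CPM in the blastocyst pools, a log2 fold change of 3.37 (SE 0.51, adjusted p 0.000206 and 0.0321). CRIP1, a small LIM-domain protein, was at 347 and 155 CPM and then at 4732 and 5269 CPM, a log2 fold change of 4.32 (SE 0.67, adjusted p 0.000235 and 0.0379). For RAB25 and CRIP1 the stages did not overlap either. The membrane proteins TMEM125 (6.75 and 30.7 CPM, then 407 and 380 CPM) and TMEM54 (0 in both morula pools, then 56.1 and 74.4 CPM, at least 1208-fold higher) also rose. The other 3 were TMEM25, PLA2G16 and DUSP13, which reached at most 14.8 CPM in a blastocyst pool, and in F10 alone the change of DUSP13 had the opposite sign (-4.17) and did not pass. KRT19, RAB25, CRIP1, TMEM125 and TMEM54 lay higher in all 6 single blastocyst fractions than in all 6 morula fractions, as did TMEM25.

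The 21 that fell included 2 genes of the oocyte and genes of several other functions. WEE2, a kinase that holds oocytes in meiotic arrest, was at 7.42 and 7.45 CPM in the morula pools and had no count in either blastocyst pool, at least 115-fold lower. H1FOO, the linker histone of oocytes, was at 7.18 and 36.7 CPM and then at 0.348 and 0 CPM. For neither gene did the stages overlap. CBR3, a carbonyl reductase, fell from 605 and 352 CPM to 53.5 and 52.6 CPM, a log2 fold change of -3.17 (SE 0.41, adjusted p 3.85e-05 and 0.0353). SDS, the serine dehydratase that turns serine into pyruvate, fell from 171 and 269 CPM to 7.35 and 9.36 CPM, a log2 fold change of -4.72 (SE 0.44, adjusted p 1.62e-06 and 0.00665). UHRF1, which brings the maintenance methyltransferase to newly copied DNA, fell from 27.1 and 22.7 CPM to 2.74 and 1.06 CPM, a log2 fold change of -3.71 (SE 0.48, adjusted p 4.21e-05 and 0.021). Of these 5 genes, CBR3 alone was lower in all 6 blastocyst fractions than in all 6 morula fractions. For 7 of the 21 no count was left in either blastocyst pool: WEE2, the myogenic factor MYF5 (5.93 and 15.6 CPM in the morula pools, at least 166-fold lower), the WNT agonist RSPO2, the retinol receptor STRA6, the sodium-calcium exchanger SLC8A1, BHLHA9 and SSUH2. The other falls were PLEKHG4, the glucose transporter SLC5A1, the glypican GPC4, the LIM protein AJUBA, TRIM64, SEMA6C, TMEM145, GSTM3, OSBPL10 and GOLGA7B. In F10 alone the change of GOLGA7B had the opposite sign (1.99) and did not pass. TRIM64 belongs to a family of near-identical copies, so its counts may include those of relatives. In the transcriptomes, 9 of the 29 genes rose, 9 fell and the rest were not called, where 10.2% of all genes rose and 11.4% fell. UHRF1 and GOLGA7B, which fell in polysomes, were among those that rose in the transcriptomes.

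**Figure D2:**
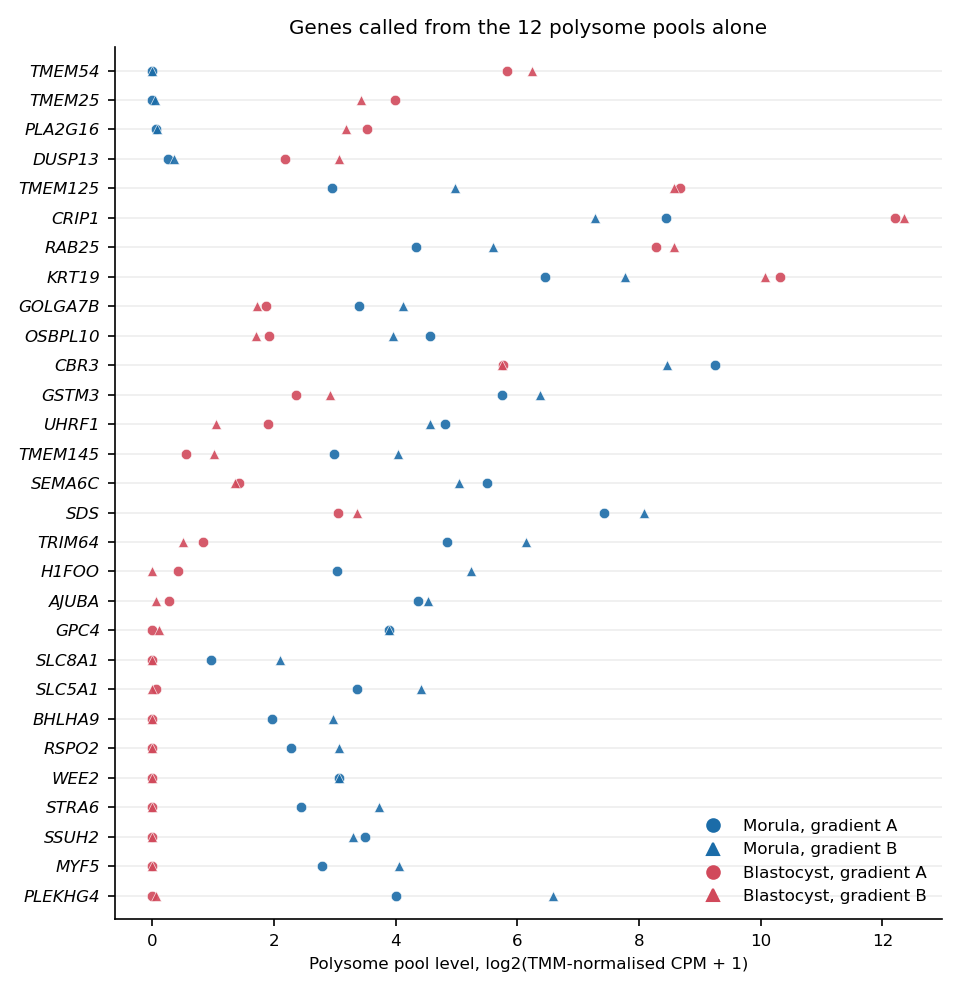
Level of the 29 genes called from the 12 polysome pools alone, as log2(CPM + 1), in each pool (circle for gradient A, triangle for gradient B, blue for morula, red for blastocyst). The stages do not overlap for any of them, and KRT19, for example, lies at 86.5 and 217 CPM in morulae and at 1274 and 1080 CPM in blastocysts.

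Among called genes whose pools did not overlap between stages and whose mean was at least 10 CPM in the higher stage, the 12 largest rises were mostly genes with almost no count in morula polysomes. Besides TMEM54 and TMEM25 they were ABO, FCRLB, PRR15L, SYNDIG1, SLCO4A1, TSPAN32, TRAF1, LRP8, C3H1orf210 and SMIM3. ABO, the glycosyltransferase of the blood group antigens, had no count in either morula pool and 3.09 and 28.7 CPM in the blastocyst pools, at least 294-fold higher. LRP8, a receptor for apolipoprotein E and reelin, was at 0 and 0.0288 CPM and then at 6.4 and 19.5 CPM. TRAF1, an adaptor of tumour necrosis factor receptors, was at 0 and 0.0288 CPM and then at 11.4 and 18.8 CPM. In each of the 3 the blastocyst pools themselves differed, and ABO was mostly in pool B. SLCO4A1 and TSPAN32 were not called in every fit with 1 pool left out. The 12 largest falls were CCDC184, CRYBA2, ZP4, CCDC158, PLEKHG4, DCN, MYF5, ARHGAP30, SLC5A1, DHX58, ZNF770 and GPC4. In several of them 1 morula pool carried most of the counts. CCDC158 was at 28.5 CPM in morula pool A and 0.46 CPM in pool B, ZNF770 at 64.7 and 1.84 CPM, and ZP4 at 0.434 and 28.9 CPM. CCDC184, CRYBA2 and ARHGAP30 were at 99.3, 79.1 and 39.4 CPM in F9 of morula gradient A, the library that stood apart. In F8 and F10 of that gradient these genes were at 2.82 CPM or less. DCN, the matrix proteoglycan decorin, was even between the pool sums (13.5 and 10.5 CPM, then 0 in both blastocyst pools). Its fractions were not even: gradient A had counts in F8 alone (28.8 CPM), and gradient B mostly in F9 and F10 (6.2 and 19.6 CPM). CRYBA2, CCDC158, DCN, ARHGAP30 and ZNF770 were not called in every fit with 1 pool left out, and the sign of ZNF770 turned in F10 alone (4.6, not called).

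Genes of the trophectoderm were the first group examined. Both keratins that pair in simple epithelia were at high counts. KRT18 was at 969 and 1602 CPM in the morula pools and at 9498 and 7118 CPM in the blastocyst pools, with no overlap. Its log2 fold change was 2.69 (SE 0.70, adjusted p 0.0149 in the model of 30 libraries and 0.251 in the 12 pools). KRT8 was at 910 and 3104 CPM and then at 7148 and 4961 CPM, with a log2 difference of 1.59 (SE 0.56) that did not pass (adjusted p 0.0563). KRT7 was at 95.9 and 161 CPM and then at 127 and 76.6 CPM. Of the 4 keratins, 2 rose and none fell, with a median log2 difference of 2.14 where all genes tested had a median of -0.02. Keratins 8 and 18 have many processed pseudogenes in mammals, which may share reads with them.

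Of 23 transcription factors of the trophectoderm, 3 (13%) rose, 1 (4.35%) fell and 19 were not called in polysomes, with a median log2 difference of 1.08, where 5.79% of all genes rose and 8.13% fell. ID2, an inhibitor of bHLH factors, rose from 30.3 and 18.7 CPM to 103 and 80.9 CPM, a log2 fold change of 1.91 (SE 0.48, adjusted p 0.01). ELF3, an ETS factor of epithelia, rose from 3.33 and 29.1 CPM to 96.9 and 57.5 CPM. HAND1 had no count in the morula pools and 1.61 and 0.936 CPM in the blastocyst pools, at least 23.6-fold higher, but with F6 to F10 summed its change was -1.29 and was not called. The gene that fell was PPARG, a nuclear receptor of lipid metabolism, at 0 and 10.6 CPM and then at 0.348 and 0 CPM (adjusted p 0.0497), with pools that overlapped and a change of the opposite sign without morula pool B (4.67, not called). None of these 4 calls held in every fit with 1 pool left out. The defining regulators CDX2 (8.39 and 38.7 CPM, then 39 and 20.3 CPM) and GATA3 (5.64 and 31.5 CPM, then 50.8 and 61.9 CPM) were not called. GATA2 was at 40.1 and 27.7 CPM and then at 61.6 and 60.4 CPM, a log2 difference of 0.85 (SE 0.46, adjusted p 0.23), and in the transcriptomes it rose from 12.8 ± 4.5 to 408 ± 82.8 CPM (SD, n = 3 per stage). The difference between its polysome and its transcriptome change, -4.14 (SE 0.61, adjusted p 0.000218), passed the test. TEAD4 was at 254 and 377 CPM and then at 170 and 135 CPM, and EOMES had no count in any pool.

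Of 19 tested products that the trophoblast secretes or carries on its surface, 4 (21.1%) rose and 1 (5.26%) fell, with a median of 1.17. Without morula pool B 9 rose, and without blastocyst pool B 2. LGALS1, a galectin, rose from 1314 and 521 CPM to 3690 and 3608 CPM (log2 fold change 1.99, SE 0.42, adjusted p 0.00307). PTGS2, the inducible cyclooxygenase, rose from 9.49 and 10.3 CPM to 108 and 144 CPM (3.67, SE 0.68, adjusted p 0.00118), and PLAC8 rose from 340 and 166 CPM to 845 and 1129 CPM. PAG2, a pregnancy-associated glycoprotein, rose from 0 and 2.82 CPM to 47.1 and 85.7 CPM, but belongs to a large family of similar genes whose reads may be shared. In each of these 4 genes all 6 blastocyst fractions were above all 6 morula fractions. Interferon tau, the signal by which ruminant embryos announce themselves to the mother, was listed as IFNT and IFNT2, members of a family of near-identical copies: IFNT was at 0 and 1.96 CPM and then at 12.6 and 13.7 CPM (adjusted p 0.106), and IFNT2 at 0 and 5.52 CPM and then at 6.96 and 5.58 CPM. PLAUR, the urokinase receptor, fell from 159 and 29.3 CPM to 0.957 and 11.8 CPM.

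Factors of the inner cell mass were the next group. Of 22 pluripotency and epiblast factors tested, none rose and 1 (4.55%) fell, with a median log2 difference of -0.24, against 5.79% rises and 8.13% falls over all genes. The gene that fell was KLF17, a Krüppel-like factor of early embryos, from 46.8 and 99.8 CPM to 1.52 and 0.255 CPM (log2 fold change -6.36, SE 1.0, adjusted p 0.000257 in the model of 30 libraries and 0.0935 in the 12 pools). Its transcriptome level fell from 119 ± 22.6 to 0.263 ± 0.299 CPM (SD, n = 3). POU5F1 was at 3060 and 1584 CPM and then at 1241 and 1270 CPM, a log2 difference of -0.89 (SE 0.40) that did not pass (adjusted p 0.14), although the pools did not overlap. NANOG was at 13.7 and 9.69 CPM and then at 13.2 and 0.468 CPM. Of 20 hypoblast genes, 1 (5%) rose: HNF4A, a nuclear receptor of endoderm, had no count in the morula pools and 6.57 and 4.6 CPM in the blastocyst pools, at least 103-fold higher. GATA6 (124 and 336 CPM, then 140 and 92.7 CPM) and SOX17 (2.7 and 1.78 CPM, then 2.92 and 1.92 CPM) were not called.

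Genes that seal the epithelium and pump fluid were counted against the same shares of all genes. Of 25 tight junction genes, 3 (12%) rose and none fell, with a median of 0.26. The claudins CLDN1 and CLDN23 had no count in the morula pools and at most 9.31 CPM in a blastocyst pool, and the polarity protein CRB3 rose from 60 and 46.1 CPM to 155 and 152 CPM. Of 24 genes of adherens junctions and desmosomes, 2 (8.33%) rose in polysomes, where 5.79% of all genes did, and 12 rose in the transcriptomes, where 10.2% of all genes did. DSC2, a desmosomal cadherin, had no count in the morula pools and 8.01 and 6.72 CPM in the blastocyst pools, at least 136-fold higher. EZR, which anchors the apical membrane to actin, rose from 198 and 647 CPM to 1028 and 910 CPM in polysomes, a log2 fold change of 1.2 (SE 0.37, adjusted p 0.0338). Its transcriptome change was 4.35 (SE 0.34), and the difference between the changes passed the test (-3.15, SE 0.49, adjusted p 0.000271). CDH1, the cadherin of compaction, was at 260 and 581 CPM and then 509 and 445 CPM. Of 22 pumps, channels and aquaporins, 3 (13.6%) rose and 1 (4.55%) fell, with a median of 0.10. FXYD4, a regulator of the sodium pump, rose from 94.2 and 79.6 CPM to 498 and 593 CPM (2.65, SE 0.75, adjusted p 0.0204). The aquaporin AQP3 (244 and 530 CPM, then 207 and 201 CPM) was not called.

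Rises were also found among the genes of cholesterol synthesis. Of 24 genes tested, 6 (25%) rose and none fell, where 5.79% of all genes rose, and in 16 of the 24 both blastocyst pools lay above both morula pools, where 17.3% of all genes did. The median log2 difference was 1.23. FDPS, farnesyl diphosphate synthase, rose from 49.1 and 104 CPM to 289 and 234 CPM (1.78, SE 0.39, adjusted p 0.00405 in the model of 30 libraries and 0.0935 in the 12 pools). MSMO1, a sterol oxidase, rose from 13.5 and 29.8 CPM to 91.1 and 157 CPM (2.51, SE 0.44, adjusted p 0.000655), and FDFT1, squalene synthase, from 30.8 and 99.2 CPM to 294 and 236 CPM (2.03, SE 0.46, adjusted p 0.00556). IDI1 rose from 0.289 and 14.3 CPM to 71 and 85 CPM. These 4 were called without each pool in turn. CYP51A1 and INSIG1 were carried by morula pool B within the morulae (0.0964 against 25 CPM and 0.0482 against 24.6 CPM) and reached 115 and 118 CPM and 106 and 123 CPM in the blastocyst pools. All 6 were higher in every blastocyst fraction than in every morula fraction, as were 1.55% of all genes, though the calls come from sums of these fractions. In the transcriptomes 15 of the 24 rose, where 10.2% of all genes did. Without morula pool B, 15 of the 24 rose in polysomes, and without either blastocyst pool 4 rose.

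Of 23 genes of glycolysis and glucose uptake, 5 (21.7%) rose and none fell in polysomes, with a median of 0.73, and without morula pool A 3 rose. TPI1, triosephosphate isomerase, rose from 164 and 69.4 CPM to 804 and 775 CPM (2.76, SE 0.56, adjusted p 0.00258). LDHA, lactate dehydrogenase, rose from 46.8 and 111 CPM to 357 and 288 CPM (2.03, SE 0.43, adjusted p 0.00353), and PDK1, which restrains the entry of pyruvate into mitochondria, from 3.37 and 11.6 CPM to 46.1 and 52.7 CPM (2.72, SE 0.50, adjusted p 0.00103). HK1 (9.3 and 33.8 CPM, then 84.5 and 76.5 CPM) and ENO1 (490 and 826 CPM, then 1835 and 1447 CPM) also rose, but not in every fit with 1 pool left out. Calls among the lipid genes went both ways. PLIN2, the coat protein of lipid droplets, fell from 914 and 1324 CPM to 281 and 211 CPM, a log2 fold change of -2.19 (SE 0.35, adjusted p 0.000341 and 0.0947), and was lower in every blastocyst fraction than in every morula fraction. FADS1, a fatty acid desaturase, rose from 1.49 and 17.7 CPM to 170 and 134 CPM (3.98, SE 0.80, adjusted p 0.00232). In all, 2 of 29 lipid genes (6.9%) rose and 3 (10.3%) fell, close to the 5.79% and 8.13% of all genes. Among 31 antioxidant enzymes, 3 (9.68%) rose and 1 (3.23%) fell, GPX8, at 0.193 and 2.39 CPM and then at 0 in both blastocyst pools. GPX1, glutathione peroxidase, rose from 1598 and 1460 CPM to 4308 and 4425 CPM (1.51, SE 0.36, adjusted p 0.00733), and its transcriptome level was 217 ± 54.5 CPM in morulae and 172 ± 18 CPM in blastocysts (SD, n = 3). PRDX1, a peroxiredoxin, rose from 2416 and 1912 CPM to 6474 and 5055 CPM.

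Transcripts of the mitochondrial genome, which are read by mitochondrial and not cytosolic ribosomes, also changed in F8 to F10. Of 13 tested, 8 rose and none fell, with a median of 1.49, where 5.79% of all genes rose and 8.13% fell. COX1 was at 5361 and 1441 CPM in the morula pools and at 17834 and 22275 CPM in the blastocyst pools (2.56, SE 0.50, adjusted p 0.00183), and CYTB at 2139 and 788 CPM and then at 5051 and 6312 CPM (1.96, SE 0.43, adjusted p 0.00412). The sum over the 13 was 23956 CPM in morula pool A, 6868 CPM in pool B and 47193 and 69906 CPM in the blastocyst pools, so the morula pools differed from each other as well. Without morula pool B, and also without blastocyst pool B, 2 of the 13 rose. In the transcriptomes, 10 of the 13 rose, where 10.2% of all genes did.

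The nuclear genes of oxidative phosphorylation and of the ribosome were counted unevenly between the morula pools. None of the 83 cytosolic ribosomal protein genes was called, and their summed level was 169790 CPM in morula pool A, 62974 CPM in pool B and 130860 and 164660 CPM in the blastocyst pools. Without morula pool A, 49 of them rose. Likewise none of the 81 nuclear oxidative phosphorylation genes rose and 1 fell, and without morula pool A 32 rose. RPL3 was at 3524 and 2163 CPM and then at 3580 and 3214 CPM.

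Lists of growth and division held more falls than rises, against a background of 8.13% falls and 5.79% rises over all genes. Of 61 genes of nucleolar ribosome biogenesis, 11 (18%) fell and 1 rose, with a median of -0.71. POLR1C, a subunit of RNA polymerases I and III, fell from 721 and 798 CPM to 219 and 204 CPM (-1.84, SE 0.57, adjusted p 0.0337). BOP1, a factor of the large ribosomal subunit, fell from 185 and 176 CPM to 60.1 and 50 CPM (-1.71, SE 0.46, adjusted p 0.0151). UTP14A, of the small subunit, rose from 11.1 and 15.3 CPM to 45.7 and 74.3 CPM (2.18, SE 0.35, adjusted p 0.000334). Of 42 proteasome genes, 9 (21.4%) fell and 1 rose, with a median of -0.73, and in 27 of the 42 both morula pools lay above both blastocyst pools, where 17.6% of all genes did. Examples were PSMD1 (124 and 229 CPM, then 88.4 and 59.2 CPM, -1.25, SE 0.28, adjusted p 0.00432) and PSMC2 (156 and 206 CPM, then 84.5 and 93.3 CPM, but with a change of 0.769, not called, in F9 alone). None of the 9 was called without each pool in turn, and 1 of the 11 nucleolar falls was. Without blastocyst pool A or B, 4 nucleolar genes fell, and 4 and 1 proteasome genes.

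Of 51 translation factors, 6 (11.8%) fell and none rose, with a median of -0.33, where 8.13% of all genes fell and 5.79% rose. EIF4A3, a helicase of the exon junction complex, fell from 628 and 1030 CPM to 209 and 255 CPM (-1.84, SE 0.29, adjusted p 0.000324). EIF5A fell from 1193 and 266 CPM to 117 and 233 CPM, with most of the difference in morula pool A. Of 46 kinetochore and mitotic genes, 6 (13%) fell and none rose. CDC20, the activator of the anaphase-promoting complex, fell from 939 and 1406 CPM to 553 and 316 CPM (-1.43, SE 0.31, adjusted p 0.00405), and the checkpoint protein BUB3 from 398 and 377 CPM to 188 and 165 CPM (-1.14, SE 0.22, adjusted p 0.0017). Of 49 DNA replication genes, 5 (10.2%) fell and 2 (4.08%) rose, close to the shares of all genes. RRM2, the regulatory subunit of ribonucleotide reductase, fell from 564 and 595 CPM to 220 and 201 CPM (-1.46, SE 0.27, adjusted p 0.00117), and MCM6, of the replicative helicase, from 88.4 and 244 CPM to 45.9 and 15.2 CPM (-2.44, SE 0.45, adjusted p 0.00105). Without blastocyst pool B, 2 translation factors, 2 mitotic and 4 replication genes fell, and without morula pool A, 10 mitotic and 3 replication genes. In the transcriptomes 22 translation factors, 18 mitotic and 14 replication genes fell, where 11.4% of all genes did. None of the genes of growth and division named here was called in the 12 pools alone, where the lowest adjusted p was 0.117, for EIF4A3.

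Genes of the oocyte made up the list with the lowest median. Of 26 tested, 14 (53.8%) fell and none rose in polysomes, with a median log2 difference of -2.75, where 8.13% of all genes fell. In the transcriptomes 2 rose and none fell (median 0.29), where 10.2% of all genes rose and 11.4% fell. KPNA7, an oocyte importin, fell from 35.2 and 214 CPM to 4.79 and 9.87 CPM (-4.09, SE 0.81, adjusted p 0.00204). MOS, the kinase of meiotic arrest, fell from 70.8 and 256 CPM to 21.9 and 24.3 CPM (-2.82, SE 0.70, adjusted p 0.0101 in the model of 30 libraries and 0.0727 in the 12 pools). BMP15, an oocyte growth factor, fell from 5.25 and 150 CPM to 3.87 and 5.19 CPM. In all 3 genes morula pool B was the highest. The summed level of the list was 572.8 CPM in morula pool A, 1249 CPM in pool B and 293.6 and 346.4 CPM in the blastocyst pools. In the transcriptomes the sum was between 1124 and 1468 CPM in the 3 morula libraries and 1965, 472.5 and 845.3 CPM in blastocyst libraries A, B and C. Without morula pool B, 5 of the 26 fell, and without morula pool A, 16 fell. The part of unfertilised or arrested oocytes among the pooled embryos was not tested.

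Markers of cells that an embryo preparation could carry along were checked beside these results. By the study's methods the cumulus cells and, with a protease, the zonae were stripped off and the embryos were inspected for other cells before freezing. Of 18 tested cumulus and granulosa markers, 4 (22.2%) rose and 3 (16.7%) fell, where 5.79% of all genes rose and 8.13% fell. No count was found in any pool for 2 of the 18 (PTX3 and INHA). Of the 4 rises, 3 were called without each pool in turn. The summed level of the 18 was 87.6 and 241.6 CPM in the morula pools and 254.2 and 238.3 CPM in the blastocyst pools. In the transcriptomes the sum was between 198.9 and 253.5 CPM in morulae and between 435.1 and 1077 CPM in blastocysts. Of the polysome sum, PTGS2, which trophoblast also makes, gave 108 and 144 CPM in the blastocyst pools. Of 20 tested markers of fibroblasts, endothelium and blood, 2 rose and 2 fell (10% each way, against the same shares of all genes). The sum of the 20 was 959.8 and 758.8 CPM and then 911.5 and 998.6 CPM in polysomes. In the transcriptomes their sum was 1214, 1714 and 920 CPM in morulae and 3522.5, 4492 and 4549 CPM in blastocysts. The part of such cells in the polysome changes was not tested. ACTA2, smooth muscle actin, rose from 1.49 and 5.55 CPM to 76.0 and 50.2 CPM, and shares long stretches of sequence with other actins. The collagen COL1A1 had no count in 3 of the 4 pools.

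**Figure D3:**
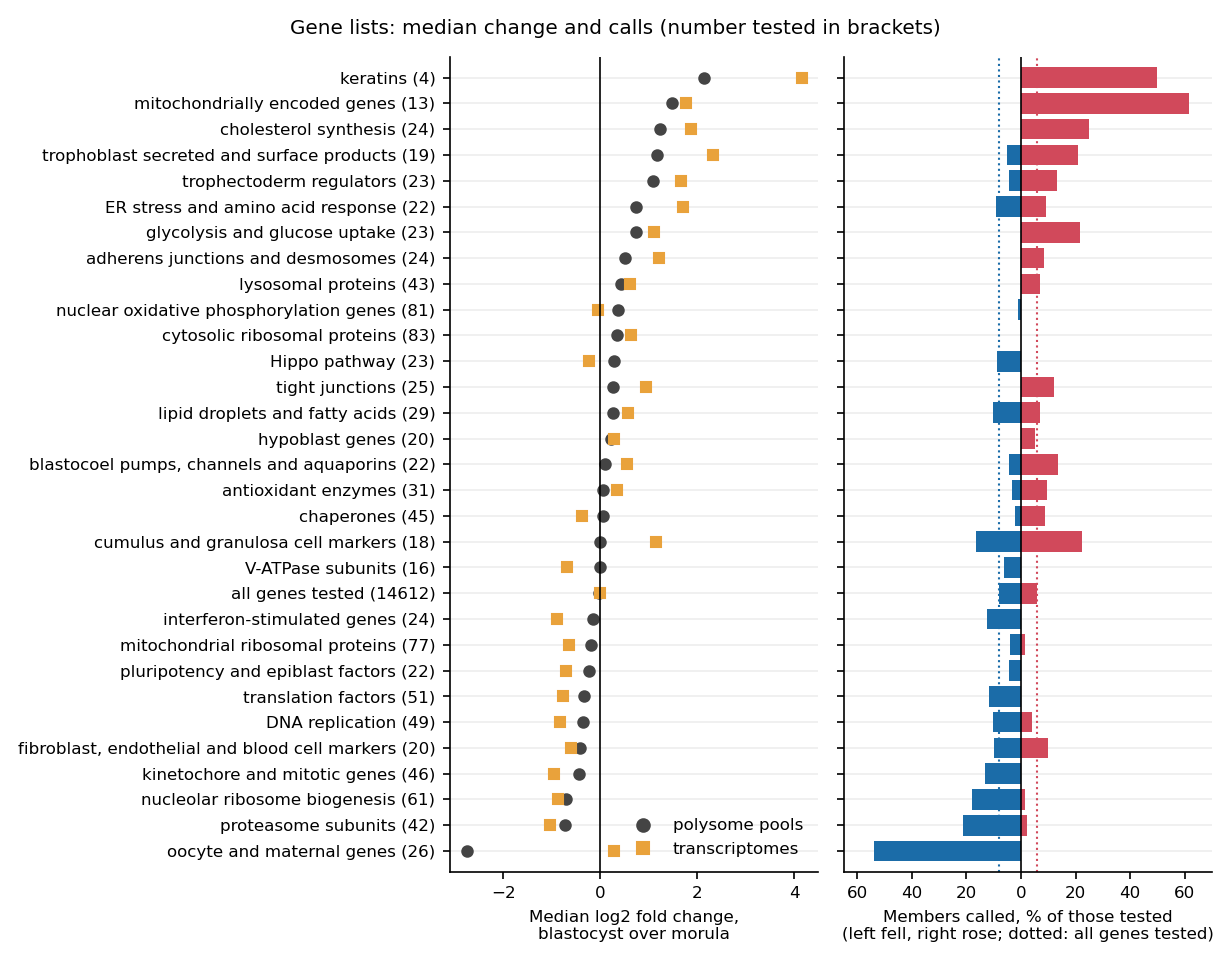
Median log2 fold change from morula to blastocyst in polysome pools (dark circles) and transcriptomes (orange squares) for 30 gene lists and for all genes tested (left), and the share of each list's tested members called as lower or higher in blastocyst polysomes (right, dotted lines at 8.13% and 5.79% of all genes). Keratins have the highest polysome median (2.14) and oocyte genes the lowest (-2.75), and the oocyte genes have a transcriptome median of 0.29.

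The remaining lists are given by their counts, against 5.79% rises and 8.13% falls over all genes. Of 45 chaperones 4 (8.89%) rose and 1 (2.22%) fell, and HSPA5, the main chaperone of the endoplasmic reticulum, rose from 48.8 and 111 CPM to 251 and 260 CPM (1.68, SE 0.52, adjusted p 0.0323). Of 43 lysosomal proteins 3 (6.98%) rose. The summed level of the 43 was 3625 CPM in morula pool A, 10915 CPM in pool B and 9057 and 9305 CPM in the blastocyst pools. Of 16 subunits of the vacuolar proton pump 1 (6.25%) fell, and of 23 Hippo pathway genes 2 (8.7%) fell, the kinase STK4 and the TEAD cofactor VGLL4 (46.6 and 54.9 CPM, then 5.7 and 16.4 CPM). Of 24 interferon-stimulated genes 3 (12.5%) fell, IFIT5, OAS1Y and STAT2, none above 5 CPM in a pool and none called in every fit with 1 pool left out. Of 22 genes of the response to stress in the endoplasmic reticulum, 2 rose and 2 fell (9.09% each way), and of 77 mitochondrial ribosomal proteins 1 rose and 3 fell.

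Genes outside the lists are named here because all 6 fraction libraries of a stage lay above all 6 of the other stage. This held for 132 of the 846 rises and 63 of the 1188 falls, against 1.55% and 0.616% of all genes tested. The calls come from sums of these same libraries, so the larger shares are built in and add no support. The 6 libraries of a stage are fractions of 2 gradients, not 6 replicates. S100A16, a calcium-binding protein, rose from 337 and 533 CPM to 1846 and 1901 CPM (2.11, SE 0.43, adjusted p 0.00255), and CYSTM1, a small membrane protein, from 345 and 130 CPM to 1304 and 1473 CPM (2.55, SE 0.43, adjusted p 0.000506). DSTN, the actin-depolymerising protein destrin, rose from 684 and 349 CPM to 1668 and 1774 CPM (1.74, SE 0.36, adjusted p 0.0028). Among the falls, TALDO1, transaldolase of the pentose phosphate pathway, went from 2151 and 1976 CPM to 821 and 903 CPM (-1.26, SE 0.25, adjusted p 0.00203). AK4, a mitochondrial adenylate kinase, fell from 403 and 297 CPM to 75.7 and 87.0 CPM (-2.10, SE 0.31, adjusted p 0.000128), and SLC1A5, the glutamine transporter, from 363 and 528 CPM to 110 and 132 CPM (-1.88, SE 0.36, adjusted p 0.00161). The histone-binding proteins RBBP4 and RBBP7 fell from 344 and 268 CPM to 120 and 122 CPM and from 283 and 283 CPM to 97.3 and 107 CPM. These 8 genes were called without each pool in turn and had adjusted p between 0.0716 and 0.177 in the 12 pools alone.

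The same model gave the change of each gene in the whole-embryo transcriptomes, where 1491 genes (10.2%) rose and 1672 (11.4%) fell. Of the 846 genes that rose in polysomes, 195 also rose in the transcriptomes, 39 fell and 612 were not called. Of the 1188 that fell in polysomes, 319 also fell in the transcriptomes, 50 rose and 819 were not called. A test of the difference between the changes called 1792 genes (12.3%), of which 881 (6.03%) had the higher change in polysomes and 911 (6.23%) in the transcriptomes. This test used the same shared spread. The largest differences of genes at 10 CPM or more whose pools did not overlap included LRP8, whose transcriptome level was 11.9 ± 2.12 CPM in morulae and 23.2 ± 8.67 CPM in blastocysts (SD, n = 3), and MYF5, whose transcriptome level was 5.65 ± 2.38 and 5.67 ± 3.51 CPM. The difference for LRP8 was 8.12 (SE 2.00, adjusted p 0.0106) and for MYF5 -10.57 (SE 1.2, adjusted p 2.74e-05). The others were FCRLB, ABO, SMIM3, B4GALNT4 and FIG4 among the higher polysome changes, and ZP4, H1FOO, ARHGAP30, DHX58 and SLC5A1 among the lower.

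Genes that moved in opposite directions are given with both readouts. ID2 rose in polysomes (1.91) and fell from 81.4 ± 8.7 to 18.5 ± 0.885 CPM in the transcriptomes (-2.14, SE 0.40), a difference of 4.05 (SE 0.62, adjusted p 0.000271). DCTN6, a subunit of dynactin, rose in polysomes from 9.11 and 17.4 CPM to 42.6 and 59.8 CPM (1.95, SE 0.39, adjusted p 0.00237) and fell from 176 ± 31.6 to 41.1 ± 7.5 CPM in the transcriptomes. GGPS1, which makes geranylgeranyl diphosphate, rose in polysomes from 7.95 and 6.38 CPM to 37.7 and 29.2 CPM (2.22, SE 0.50, adjusted p 0.00521) and fell from 156 ± 32.9 to 40 ± 6.13 CPM. In the other direction, UHRF1 fell in polysomes and rose from 6.17 ± 3.31 to 27.7 ± 9.18 CPM in the transcriptomes, a difference of -5.86 (SE 0.61, adjusted p 7.7e-06). INTS11, the endonuclease of the Integrator complex, fell in polysomes from 676 and 900 CPM to 295 and 203 CPM (-1.66, SE 0.35, adjusted p 0.00331) and rose from 34.5 ± 12.7 to 87.2 ± 10.9 CPM. MAP2K7, a kinase that activates JNK, fell in polysomes from 44.9 and 36.8 CPM to 6.4 and 5.58 CPM (-2.77, SE 0.60, adjusted p 0.00369) and rose from 2.28 ± 1.2 to 11 ± 7.26 CPM. KPNA7 and ZP4 also fell in polysomes and rose in the transcriptomes, but blastocyst transcriptome A carried most of that rise (52.0 against 4.35 and 12.8 CPM for KPNA7, and 25.9 against 5.18 and 5.40 CPM for ZP4).

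**Figure D4:**
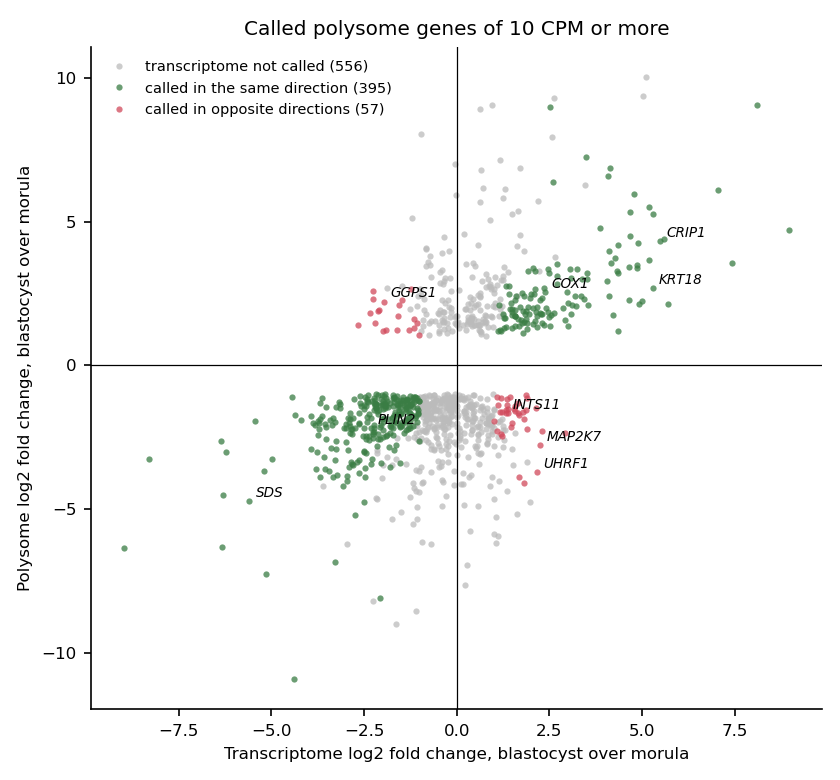
Transcriptome change (x axis) and polysome change (y axis), both log2 blastocyst over morula, for the 1008 called polysome genes with counts in both stages and a mean of at least 10 CPM in the higher one. Green points (395) were called in the same direction in both, red points (57) in opposite directions, and grey points (556) were not called in the transcriptomes.

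In the monosome fractions (F3 to F5, summed in the same way) 1169 of 15312 genes (7.63%) rose and 2007 (13.1%) fell. With library totals in place of TMM factors, the share of these calls that rose went from 36.8% to 20.7%. Of the 846 polysome rises, 197 also rose in monosomes and 97 fell, and of the 1188 polysome falls, 422 also fell and 38 rose. KRT18 rose in both (3.18 in monosomes, adjusted p 0.0315), as did CRIP1 (4.27), RAB25 (2.95) and COX1 (2.49), and SDS (-5.91), CBR3 (-3.33) and KLF17 (-4.50) fell in both. A test of the polysome against the monosome change called 1102 genes (7.2%), of which 729 (4.76%) had the higher change in polysomes and 373 (2.44%) in monosomes. Both pools of a gradient come from the same lysate. A fit of these pools without the transcriptomes, with each gradient as a block, called 34 (31 and 3). In that fit 1478 of 14873 genes had an unadjusted p below 0.05. With the transcriptomes kept and the gradient letter as the block, 926 were called (611 and 315). The part of the block in the drop to 34 was therefore not separated from that of the libraries left out. With library totals the share with the higher change in polysomes went from 66.2% to 77.2%.

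The single fractions showed where along the gradient the stages differed. KRT18 increased towards the heavy end in blastocysts, from 1306 and 955.8 CPM in F3 of gradients A and B to 10450 and 8418 CPM in F10, and lay above morulae in every fraction of both gradients. CRIP1 showed no such increase and lay between 1908 and 10350 CPM in the blastocyst fractions and between 30.5 and 385.8 CPM in the morula fractions. COX1 was highest in the light and monosome fractions at both stages, at 72690 and 56130 CPM in F3 of the blastocyst gradients and 9160 and 13520 CPM in F10. PLIN2 had its highest values in morula F10 (899.9 and 1246 CPM), where blastocysts had 282.4 and 171.7 CPM. KLF17 had no count in F8 and F9 of morula gradient A (105.5 CPM in F10) and 107.6 and 71.3 CPM in F8 and F9 of gradient B, and stayed at or under 2.43 CPM in each of the 6 blastocyst polysome fractions.

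**Figure D5:**
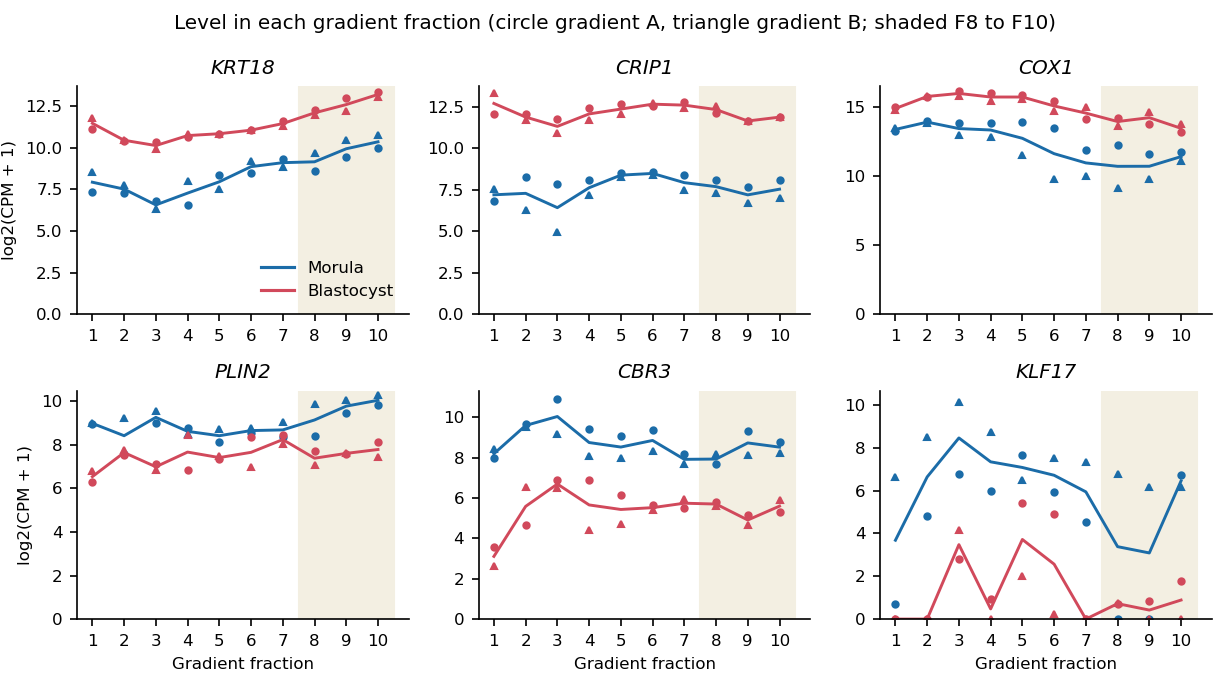
Level of 6 genes, as log2(CPM + 1), in the 10 gradient fractions of morulae (blue) and blastocysts (red), with circles for gradient A, triangles for gradient B and lines for their mean. In F8 to F10 (shaded), blastocysts lie above morulae for KRT18, CRIP1 and COX1 and below for PLIN2 and CBR3.

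Seen over all 6 stages, 320 of the 846 rises had their highest mean polysome level in the blastocyst, as KRT18, CRIP1, RAB25 and COX1 did, and 302 of the 1188 falls had theirs in the morula, as PLIN2, RRM2 and TALDO1 did. Of all genes tested, 18.1% were highest in the blastocyst and 17.5% in the morula, and the rule for a rise or a fall bars the other of these 2 stages. Other genes were higher before the morula. KRT19 had its highest mean at MII, SDS and KLF17 at the 8-cell stage, WEE2 and UHRF1 at the 2-cell stage, and CBR3 and KPNA7 at MII.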

How the data were processed

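The authors deposited 1 table of estimated counts (expected counts, not whole) for 16706 gene symbols in 138 libraries, made with Salmon from Smart-seq and Nextera XT libraries; 11.7% of the values were not whole, and all were rounded for the tests. The labels name the build UMD3.1 and the methods ARS-UCD1.2, so no coordinates are given. Amplified libraries carry no molecular identifiers, so levels of few counts are less certain than their number says. Morula transcriptomes held 8818270 to 10368017 counts and blastocyst transcriptomes 3269385 to 5256286.

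Counts were summed per gradient over F8 to F10 (polysome pools) and over F3 to F5 (monosome pools). The 12 polysome pools and 18 transcriptomes were fitted together in edgeR 4.0.16 (R 4.3.3) with 12 groups, TMM factors, filterByExpr and the quasi-likelihood test, two-sided, with Benjamini-Hochberg adjustment over all genes tested. A second model of 42 libraries added the monosome pools. The shared model gives the noisier polysome pools and the steadier transcriptomes 1 dispersion per gene. Standard errors are the log2 fold change over the square root of F. Folds against a stage with no count are bounds against 3 counts over both pools. Alternatives included DESeq2 1.42.0, limma-voom 3.58.1, other scalings and filters, single fractions, the pools alone, each polysome pool or gradient left out in turn, each morula or blastocyst transcriptome left out of the transcriptome change, and F9 of morula gradient A left out. The fit was also run on simulated data, where it recovered 41% of 4-fold and 58% of 8-fold changes, with 9 false calls. The simulation gave pools and transcriptomes the same dispersion per gene, so it could not test the effect of the shared spread. Gradient letters did not pair stages: deviations of same-letter pools had r between -0.0485 and 0.0470. The members and gene lists were chosen with earlier results of these data known. Genes could be named by rule, though not every gene that met it is named: the 12 largest rises and falls (6 each way for the difference from the transcriptome) among called genes at 10 CPM or more without overlap between stages, and in each list the 3 most counted members and the largest called change each way, with any keratin, trophectoderm regulator or pluripotency factor. The other named genes, such as the 29 called in the pools alone, those split by all 6 fractions and those with opposite changes, were chosen after their values were seen.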

Additional observations from a re-analysis of the deposited data

Results flagged for a closer look

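The difference between the polysome and the transcriptome change passed the test in 1792 genes, and that between the polysome and the monosome change in 1102 genes. With the gradient as a block and without the transcriptomes in the fit, the latter count was 34 (31 and 3). Among the genes named above, 9 were called in opposite directions in polysomes and transcriptomes. Those with the higher change in polysomes were ID2, with a log2 difference of 4.05, DCTN6 with 4.045, and GGPS1 with 4.19. Those with the lower change in polysomes were UHRF1 (-5.86), MAP2K7 (-5.02), INTS11 (-3.0), GOLGA7B (-3.58), KPNA7 (-5.91) and ZP4 (-13.38). UHRF1 and GOLGA7B were also called from the 12 polysome pools alone, but in F10 alone the polysome change of GOLGA7B had the opposite sign (1.99) and did not pass. For KPNA7 and ZP4, blastocyst transcriptome A lay above the other 2 blastocyst transcriptomes, and the part of that library in the difference was not tested.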

How the results depend on the processing

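The counts of polysome calls depended most on which libraries shared the estimate of spread. Against 2034 calls (846 rose, 1188 fell), the 12 polysome pools alone gave 29 (8 and 21), the 4 pools alone 0, and the 10 morula and blastocyst libraries 975 (509 and 466). Requiring 10 CPM gave 792 (322 and 470), F10 alone 1200 with 620 falls, F9 alone 675 falls, and thinning to the smallest total 721 falls. DESeq2 gave 1335 rises and limma-voom 1296. Leaving out 1 pool gave between 1033 and 2824 calls (584 to 1697 rises, 449 to 1468 falls). The lowest counts of calls and falls came without blastocyst pool B and the highest count of rises without morula pool B. With the gradient letter as a replicate block there were 1582 polysome calls (666 and 916), 1494 calls of the polysome minus transcriptome change and 2968 of the transcriptome change. Leaving out 1 library, the transcriptome change had 2228 to 2630 calls (927 to 1254 rises, 1239 to 1446 falls). The polysome minus transcriptome change had 1009 to 2574 (592 to 1707 higher in polysomes, 417 to 1241 lower), and the likelihood ratio test gave 1374 lower. The monosome change had 2322 to 3850 calls (784 to 2117 rises, 1538 to 2279 falls), and library totals gave 688 rises. The polysome minus monosome change had 782 to 2164 (580 to 1154 higher, 202 to 1010 lower), library totals gave 242 lower, and the gradient as a replicate block left 34 (31 and 3). That fit with the gradient as a block also left out the transcriptomes. Library totals moved the median polysome change of all genes to -0.10 and that of the monosome change to -0.33. The sign turned for DUSP13 (-4.17) and GOLGA7B (1.99) in F10 alone, HAND1 (-1.29) with F6 to F10, PSMC2 (0.769) in F9 alone, PPARG (2.90) and STAT2 (1.57) in F8 alone, and ZNF770 (4.6 in F10 alone, 4.28 in F8 and F10). The PPARG polysome log2 fold change lay between -9.575 and 4.67 with 1 pool left out, positive without morula pool B. None of these reversed values passed the test, and the cause was not tested.

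With 2 pools a stage and a biological coefficient of variation of 0.886, fold changes of a single gene are imprecise, and a gene that was not called is not shown to be unchanged. The letter of a gradient does not tie a morula to a blastocyst pool, so the block fit is not a paired analysis.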
